A study of Mus musculus with 20 samples.

Results

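The 54 genes described here act in G2 and mitosis, the stages in which a cell that has copied its DNA prepares to divide and separates its chromosomes. They were taken as a fixed list of mouse gene symbols, chosen with earlier results of these data known, and matched to Ensembl identifiers. All 54 of 54 were among the 55487 gene identifiers in the count table and among the 12799 genes abundant enough to be tested. RNA was sequenced from BV-2 microglia, an immortalised mouse microglial cell line made from brain cultures of C57BL/6 mice and labelled wild type (WT). Young BV-2 microglia were cells at low passage. Aged BV-2 microglia were cells of the same line kept in continuous culture for more than 100 days and then frozen, and aliquots of both ages were thawed together. Both ages were either left untreated or exposed to lipopolysaccharide (LPS), a bacterial cell wall component that activates microglia through Toll-like receptor 4, at 100 ng/ml for 6 hours. The 4 groups, young untreated, aged untreated, young LPS and aged LPS, had 5 replicates each, and the replicate numbers 1 to 5 are batch numbers, so that each batch held 1 replicate of every group. An immortalised line divides without limit in culture, unlike most microglia of the brain, and whether the aged cells came from more than 1 long-term culture is not given in the sources used here. The p-values below therefore measure the spread between these replicates only.

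Cyclin-dependent kinase 1 (Cdk1) bound to cyclins A and B drives cells from G2 into mitosis. The spindle assembly checkpoint then delays the separation of the chromosomes until every kinetochore is attached to the spindle. After that, the anaphase-promoting complex, activated by Cdc20, marks securin and cyclin B for destruction. Most of these genes are transcribed periodically, with the MuvB complex acting together with Mybl2 and Foxm1 at a promoter element called CHR (cell cycle genes homology region) and with the factor NF-Y at CCAAT boxes. BV-2 cells divide continuously in culture.

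The promoters of 6 members are printed here because the results turn on them or because they differ in these elements. They belong to Ncapd2 and Cenpf, which had the largest falls after LPS, to Mki67, to Mybl2, to Cdc20, which did not pass the test, and to Pttg1, which rose. Each is a run of 200 bases from RefSeq (GRCm38.p6), 170 before to 30 after the annotated transcription start, written 5′ to 3′ on the strand of the gene. The stretch of Pttg1 lies inside the gene as GENCODE places it (chr11:43420250-43426251). It is therefore not the sequence before the start in that annotation. Capitals mark matches on either strand to the CHR letters TTTGAA, to the NF-Y letters CCAAT, or to E2F, which stands for TTTCCCGC, TTTCGCGC, TTTGCCGC or TTTGGCGC. The regions are chr6:125191557-125191756 on the minus strand for Ncapd2, chr1:189688057-189688256 on the minus strand for Cenpf, chr7:135716350-135716549 on the minus strand for Mki67, chr2:163054465-163054664 on the plus strand for Mybl2, chr4:118437314-118437513 on the minus strand for Cdc20 and chr11:43425952-43426151 on the minus strand for Pttg1.
Ncapd2: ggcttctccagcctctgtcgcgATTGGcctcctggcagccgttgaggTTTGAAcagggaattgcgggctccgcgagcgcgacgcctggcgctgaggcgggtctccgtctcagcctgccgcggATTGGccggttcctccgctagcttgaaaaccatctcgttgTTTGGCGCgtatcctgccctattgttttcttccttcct
Cenpf: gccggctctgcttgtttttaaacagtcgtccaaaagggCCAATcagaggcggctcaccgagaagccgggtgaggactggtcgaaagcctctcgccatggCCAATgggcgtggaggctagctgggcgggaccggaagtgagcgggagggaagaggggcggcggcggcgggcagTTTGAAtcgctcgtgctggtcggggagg
Mki67: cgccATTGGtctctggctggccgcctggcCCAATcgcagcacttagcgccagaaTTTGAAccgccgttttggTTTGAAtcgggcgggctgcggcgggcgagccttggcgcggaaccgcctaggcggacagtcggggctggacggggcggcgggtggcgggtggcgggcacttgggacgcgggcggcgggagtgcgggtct
Mybl2: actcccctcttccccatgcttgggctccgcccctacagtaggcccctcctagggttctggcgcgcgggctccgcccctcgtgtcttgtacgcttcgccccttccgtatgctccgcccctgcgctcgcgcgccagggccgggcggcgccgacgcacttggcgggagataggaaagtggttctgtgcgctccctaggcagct
Cdc20: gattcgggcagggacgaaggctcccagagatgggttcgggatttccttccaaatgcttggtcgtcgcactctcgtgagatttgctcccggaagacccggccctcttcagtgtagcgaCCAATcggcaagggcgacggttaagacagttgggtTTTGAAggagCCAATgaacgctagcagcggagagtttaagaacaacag
Pttg1: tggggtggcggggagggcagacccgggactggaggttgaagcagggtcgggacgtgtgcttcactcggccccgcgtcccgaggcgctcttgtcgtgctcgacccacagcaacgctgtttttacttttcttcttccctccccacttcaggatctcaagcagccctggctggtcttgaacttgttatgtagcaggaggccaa

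Promoter windows of 300 bases, 250 before to 50 after the start, were matched for 45 of the 54 members. Kif20a, Cdc25c, Ccna2, Tpx2, Foxm1, Incenp, Smc4, Spc24 and Aurkb had no entry. CHR was found in 32 of the 45 windows (71.1%), against 17.9% of 32851 mouse promoters of the same length, and CCAAT in 33 (73.3%), against 37.4%. Both motifs stood in 28 windows (62.2%), against 6.95% of all promoters. E2F was found in 3 windows (6.67%), those of Ncapd2, Ncapg and Cdk1, against 2.26%. CHR matches lay at a median distance of -2 bases from the start and CCAAT matches at -64 bases. Among the 31 matched members that fell after LPS in young cells, 22 (71.0%) had a CHR and 21 (67.7%) a CCAAT match. Among the other 14, which were not called lower, CHR was found in 10 (71.4%) and CCAAT in 12 (85.7%). Most of these 14 also had log2 fold changes below 0, such as Kif4 (-0.31) and Top2a (-0.20). Whether the shares differ between the 2 sets was not tested. A match is a string of letters and not evidence that a factor was bound, and windows without one, such as those of Mybl2 and Pttg1, say only that these letters are not there. The windows of Pttg1, Kif2c, Cdca8, Cdca3 and Kif4 lie wholly inside the gene as GENCODE places it. For these members the bases before the start in that annotation were not searched.

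**Figure D1:**
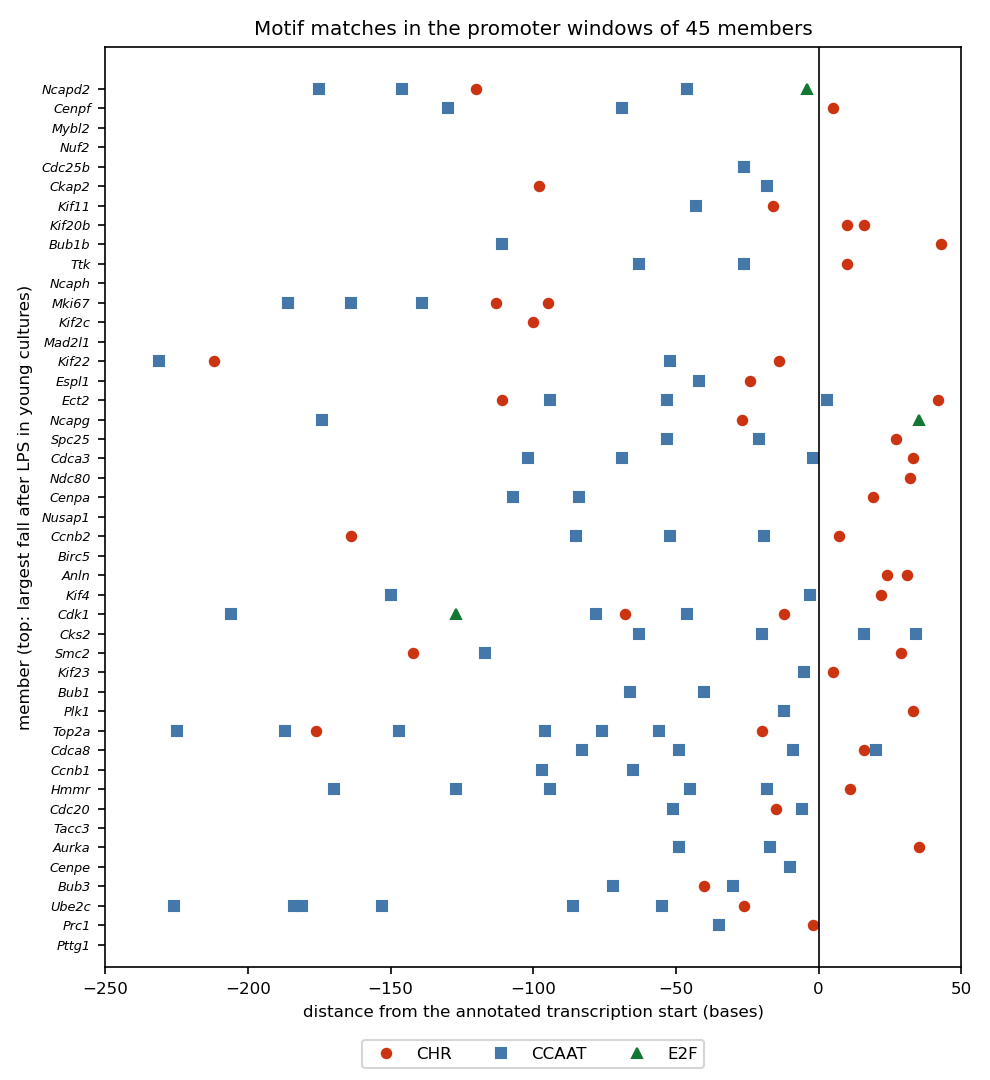
Motif matches in the promoter windows of the 45 matched members, ordered from the largest fall after LPS in young cells (top) to the rise of Pttg1 (bottom). The horizontal axis is the distance from the annotated start in bases, with circles for CHR, squares for CCAAT and triangles for E2F. CHR matches stand in 32 members at all positions of the order. Of 41 CHR matches, 34 lie between 100 bases before the start and the end of the window. Others lie farther before it, such as that of Ncapd2 at -120. CCAAT matches lie mostly before the start.

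Libraries held 11371508 to 16829292 counts, with group medians from 14257954 to 14458210, so that a count of 3 corresponded to 0.178 to 0.264 CPM (counts per 1000000 counts of the scaled library) and all members lay far above that floor. The members together took 0.791% to 0.980% of the counts in untreated libraries and 0.466% to 0.812% after LPS. Genes that LPS is known to induce followed the labels in every library. Tnf, a cytokine, stood between 12.7 and 30.04 CPM in untreated and between 400.3 and 1123 CPM in LPS libraries. Of 13 microglia and macrophage markers, 12 exceeded 3 counts in at least 1 library, led by Cd68 at a mean of 1006 CPM. Only Sall1, which resident brain microglia express, was at or below the floor in every library. Cx3cr1 and P2ry12, also markers of resident microglia, were close to the floor. In young untreated, aged untreated, young LPS and aged LPS cells Cx3cr1 averaged 1.05, 0.50, 0.40 and 0.31 CPM. P2ry12 averaged 1.17, 0.84, 0.20 and 0.073 CPM. The summed level of the 13 markers averaged 3149 CPM in young untreated, 2628 in aged untreated, 3610 in young LPS and 3033 in aged LPS cells, so it moved with age and with LPS, and its part in the results was not tested. Markers of astrocytes, oligodendrocytes, neurons and fibroblasts, 6 of each, summed to at most 1.55, 1.78, 0.413 and 0.129 CPM in any library, and Gfap, Mog, Snap25 and Col1a1, which define those cells, did not exceed 3 counts in any library.

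Young LPS replicate 1 stood apart from the other 4 of its group in the genes described here. It was the highest of its group for 50 of the 54 members, and their summed level was 7918 CPM in it against 5732, 6117, 5703 and 5103 CPM in replicates 2 to 5. It also had the lowest total count (11371508) and the lowest mitochondrial share (0.517%) of all libraries. Its LPS-induced genes were not low, since Il1b (632.5 CPM), Tnf (1123 CPM) and Nos2 (430.2 CPM) were the highest of the 20 libraries. Among the others, replicate 5 was lowest for 39 members in young LPS and for 40 in aged LPS cells, while aged replicates 2 and 4 had the highest summed levels of their groups both untreated (8917 and 9053 CPM) and with LPS (8078 and 8345 CPM). The counts of members called, and the members whose call or value after LPS in young cells rests on young LPS replicate 1, are given with and without it.

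**Figure D2:**
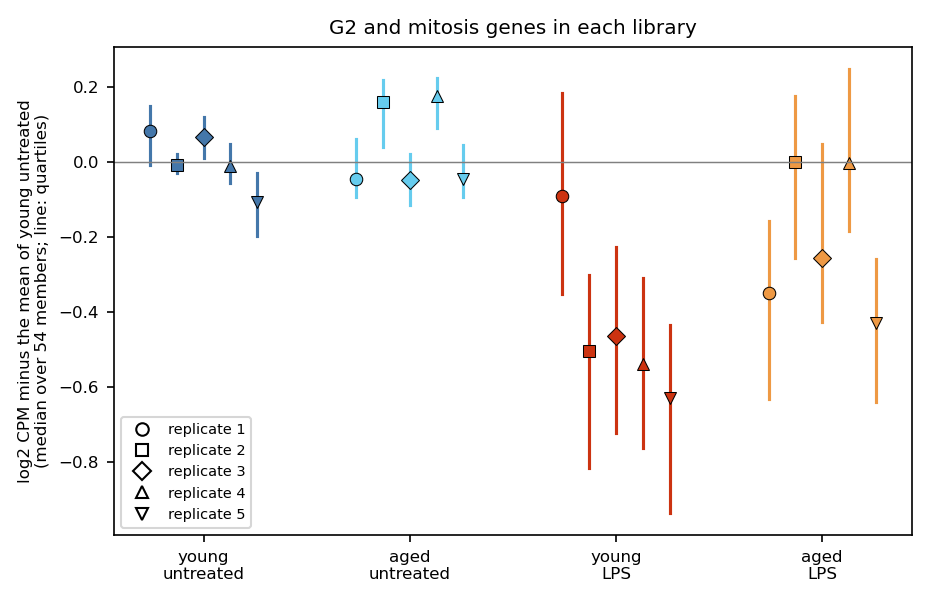
Median over the 54 members of the log2 CPM minus the mean of young untreated cells (vertical axis), for each library of the 4 groups, with lines for the quartiles over members and symbols for replicates 1 to 5. Young LPS replicate 1 lies at -0.09 while replicates 2 to 5 lie between -0.63 and -0.46, and aged LPS replicates 2 and 4 lie close to 0 while replicate 5 lies at -0.43.

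Per length, the members differed widely in young untreated cells. Cdc20, the activator of the anaphase-promoting complex, had the highest level at 90.1 CPM per kb of exon, followed by the mitotic kinase Plk1 (79.7), Ccna2 (76.3), Ube2c, which loads ubiquitin for the anaphase-promoting complex (75.8), Aurka (73.8) and the checkpoint protein Bub1b (69.7). The lowest were the Cdk1-activating phosphatase Cdc25c (2.62 CPM per kb), the securin Pttg1 (6.36), Ckap2 (6.95) and the kinetochore subunits Ndc80 (7.11) and Spc24 (7.205). The neighbours Ckap2, Ndc80 and Spc24 differed by less than the spread between replicates, which was 2.42, 2.61 and 2.04 CPM (SD, n = 5) on means of 22.4, 46.2 and 18.5 CPM before division by length.

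Without LPS, the question is whether long-term cultivation changed the expression of these genes. None of the 54 members passed the test between aged and young untreated cells (edgeR's quasi-likelihood test, Benjamini-Hochberg adjusted p below 0.05), while 11.5% of all tested genes did, 3.71% higher and 7.81% lower in aged cells. The log2 fold changes had a median of 0.03 in the members and -0.01 in all tested genes, and 3 members had an unadjusted p below 0.05. The share of all tested genes with such a p was not counted in this fit. Without young LPS replicate 1, 5 members and 3457 of 12902 tested genes had one. The 3 members with all libraries were the phosphatase Cdc25c (log2 fold change 0.34, 95% interval 0.10 to 0.58), the transcription factor Mybl2 (0.22, 0.07 to 0.37) and cyclin B2, Ccnb2 (0.15, 0.05 to 0.26). Each was higher in the aged replicate in 5 of 5 batches. Their adjusted p values in edgeR were 0.058, 0.053 and 0.057. With the batch as a block, edgeR called these 3 higher, with adjusted p values of 0.013, 0.021 and 0.028, where 6.0% of all tested genes were higher. DESeq2 without the block called the same 3, where 4.28% of all genes it tested were higher. Cdc25c stood at 13.1, 13.5, 12.8, 13.9 and 11.2 CPM in young and at 16.8, 18.0, 13.6, 17.8 and 15.5 CPM in aged untreated replicates 1 to 5. Aged replicates 1, 2, 4 and 5 lay above all young ones and replicate 3 among them. Ccnb2 stood at 75.6, 76.3, 79.1, 73.4 and 78.4 CPM in young and at 85.4, 92.1, 79.8, 85.1 and 82.7 CPM in aged untreated replicates, and all 5 aged values lay above all 5 young ones, by a margin of less than 1 CPM between the nearest. The proliferation antigen Mki67 averaged 648 ± 73.6 (SD, n = 5) CPM in young and 594 ± 94.5 (SD, n = 5) CPM in aged cells, with a log2 fold change of -0.13 and a 95% interval of -0.42 to 0.17. For Cdk1 itself the interval was -0.34 to 0.16.

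In young cells, LPS lowered most of the members. At an adjusted p below 0.05 in edgeR's quasi-likelihood test, 37 of 54 members (68.5%) were lower after 6 hours and 1 was higher, where 33.5% of all tested genes were lower and 31.2% higher (64.6% in all). Log2 fold changes had a median of -0.46 in the members and -0.01 in all tested genes. In this bulk RNA, fewer cells in G2 and mitosis and less RNA of these genes per cell cannot be told apart. Within batches, the median over members was -0.15 in batch 1, the batch of young LPS replicate 1, and -0.53 to -0.48 in batches 2 to 5. Without that library 44 members were lower and 1 higher, where 32.9% and 30.8% of all tested genes were. When libraries were scaled by their totals alone, the median of all tested genes shifted to -0.23 in young and -0.16 in aged cells. That of the members shifted to -0.68 and -0.42. Such a scaling moves all genes of a library alike, so it cannot test whether the members lay below the other genes.

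**Figure D3:**
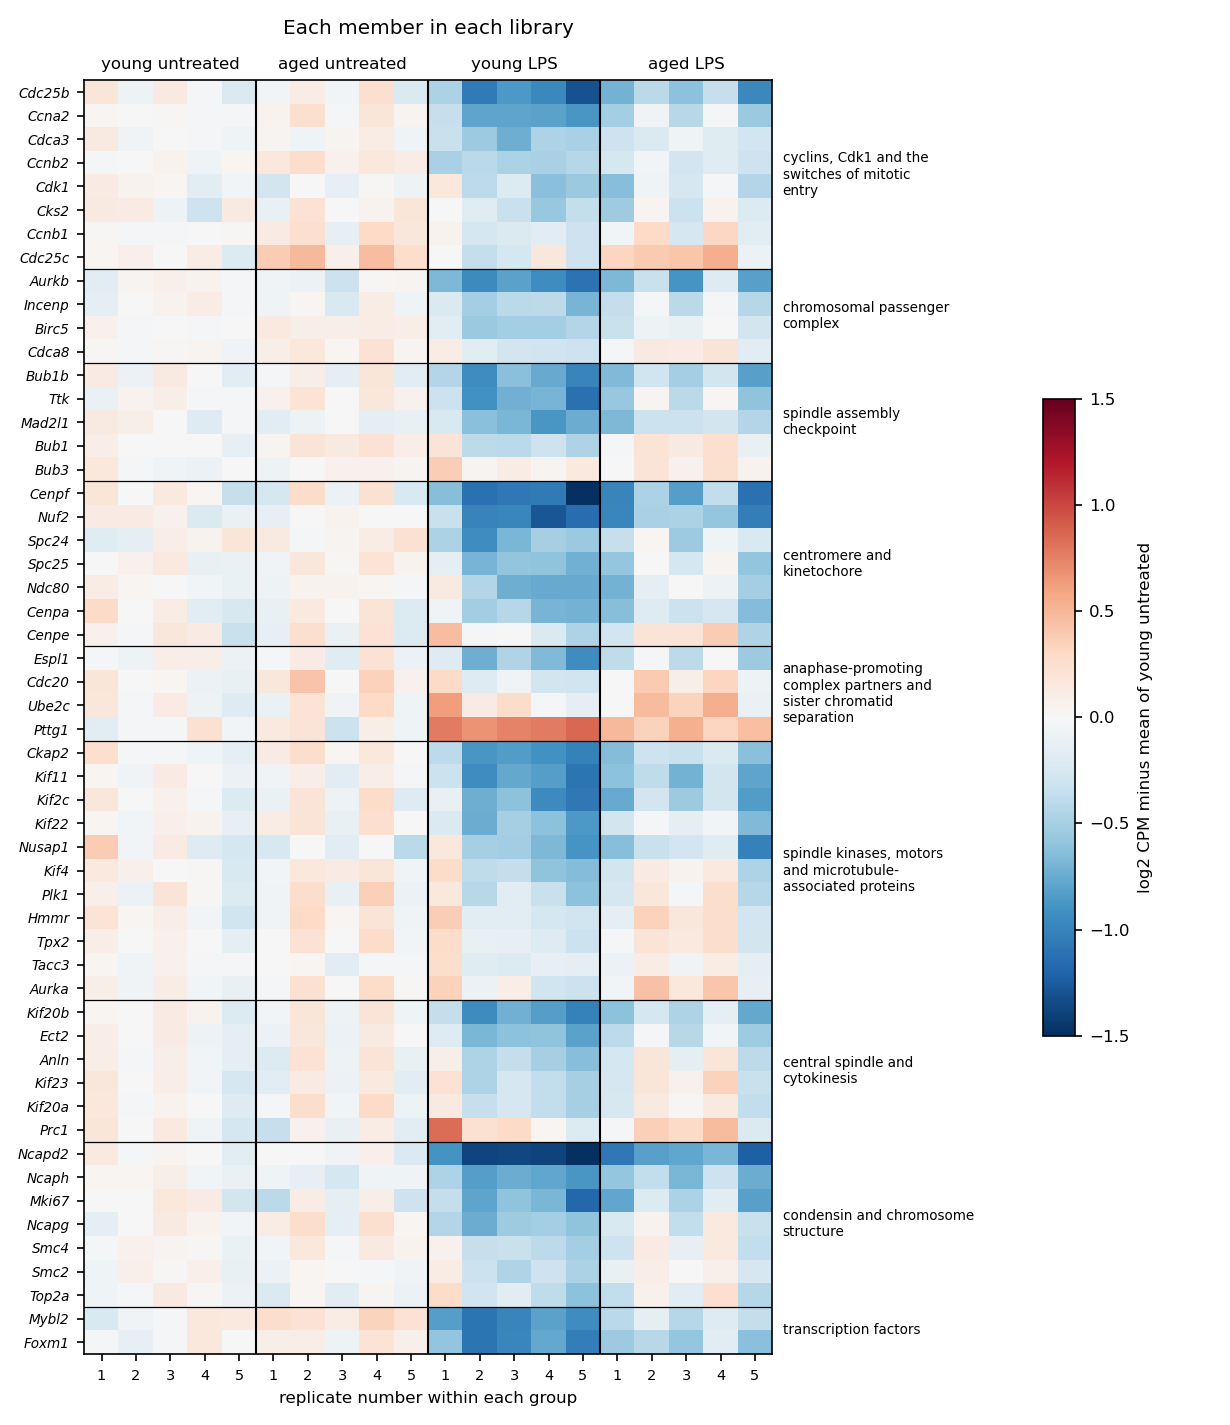
Log2 CPM of each of the 54 members in each of the 20 libraries minus the mean of young untreated cells (blue lower, red higher), in rows grouped by role and ordered within a role by the change after LPS in young cells. The young LPS columns 2 to 5 are the bluest, column 1 of that group is paler, and Pttg1 is red in all 10 LPS columns.

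Of the 8 cyclins, Cdk1 partners and switches of mitotic entry, 6 fell in young cells, led by Cdc25b (-0.92) and cyclin A2, Ccna2 (-0.71). Cdk1 fell by 19.0% (log2 fold change -0.30 ± 0.12 SE, adjusted p = 0.033 in edgeR), from 141, 135, 132, 116 and 126 CPM in untreated replicates 1 to 5 to 144, 98.6, 112, 83.9 and 88.3 CPM after LPS. LPS replicate 1 was the highest of the 10 values, replicates 2 to 5 lay below all untreated ones, and the groups overlapped through replicate 1 alone. The call was lost without replicate 2, 3, 4 or 5 of all groups (adjusted p from 0.0608 to 0.126 in edgeR) and without any of 6 single young libraries, and it was stronger without LPS replicate 1 (-0.44, adjusted p = 0.00095). Cyclin B1, Ccnb1, the partner of Cdk1 at mitotic entry, was at 174, 170.3, 169, 173 and 174 CPM untreated and at 178, 144, 148, 154 and 138 CPM after LPS. Here too LPS replicate 1 was the highest value and the other 4 lay below every untreated one. Its log2 fold change of -0.18 (95% interval -0.38 to 0.02) did not pass the test with all libraries. It passed without LPS replicate 1 (-0.24, adjusted p = 0.037 in edgeR), and also with that library kept in a fit of the young groups alone (-0.18, adjusted p = 0.021), where 33.3% of all tested genes were lower. Cdc25c did not pass with or without LPS replicate 1 (-0.14 and -0.18).

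All 4 genes of the chromosomal passenger complex, which corrects faulty attachments and guides cytokinesis, fell in young cells. Its kinase Aurkb fell 1.86-fold, from 99.2, 114, 116, 115 and 109 to 69.2, 57.0, 63.2, 57.9 and 51.2 CPM (log2 fold change -0.89 ± 0.11 SE, adjusted p = 2.2e-07 in edgeR's quasi-likelihood test). The highest LPS value, in replicate 1, lay well below the lowest untreated one. Its scaffold Incenp (-0.44), the survivin gene Birc5 (-0.43) and the borealin gene Cdca8 (-0.18) fell less, and the call of Cdca8 was lost in DESeq2 (-0.17, adjusted p = 0.074), where 21.0% of all genes it tested were lower. In the spindle assembly checkpoint 4 of 5 genes fell, namely Bub1b, the kinase Ttk (-0.74), Mad2l1 (-0.62) and Bub1 (-0.26, and -0.39 without LPS replicate 1), while Bub3 was at 0.14 (95% interval 0.01 to 0.27, adjusted p = 0.051 in edgeR), and at 0.08 without LPS replicate 1. DESeq2 called Bub3 higher (0.15, adjusted p = 0.046), where 21.9% of all genes it tested were higher. Bub1b, which holds back Cdc20 until attachment is complete, stood at 323, 279, 326, 298 and 264 CPM untreated and at 219, 156, 192, 175 and 149 CPM after LPS, without overlap (log2 fold change -0.74 ± 0.11 SE, adjusted p = 2.3e-06 in edgeR).

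Of 7 centromere and kinetochore genes 6 fell in young cells, including all 4 subunits of the microtubule-binding Ndc80 complex, Nuf2 (-0.93), Spc24 (-0.63), Spc25 (-0.54) and Ndc80 (-0.48), and the centromeric histone Cenpa (-0.48). Cenpf, a large protein of the outer kinetochore, had the second largest fall of all members, 2.10-fold. Its level was 177, 155, 173, 158 and 122 CPM untreated and 100.1, 71.7, 74.3, 74.7 and 54.1 CPM after LPS. Replicate 5 was the lowest of both groups and the groups did not overlap (log2 fold change -1.07 ± 0.16 SE, adjusted p = 2.5e-06 in edgeR). The kinetochore motor Cenpe did not pass, with -0.03 and a 95% interval of -0.36 to 0.30. Its difference was 0.40 in batch 1 and -0.33 to -0.01 in batches 2 to 5, and without LPS replicate 1 its change was -0.18 (adjusted p = 0.30 in edgeR).

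Among the partners of the anaphase-promoting complex, the members moved in opposite directions. Espl1, separase, the protease that cuts cohesin at anaphase, fell (-0.58). Pttg1, securin, which binds separase and holds it inactive, was the single member that rose in edgeR. It stood at 11.4, 12.5, 12.5, 14.8 and 12.3 CPM untreated and at 21.8, 20.2, 21.3, 21.7 and 23.0 CPM after LPS. All LPS values lay above all untreated ones, and the rise was 1.70-fold (log2 fold change 0.76 ± 0.09 SE, adjusted p = 8.9e-08 in edgeR's quasi-likelihood test, higher in 5 of 5 batches). Cdc20 was at 189.6, 167, 172, 158 and 155 CPM untreated and at 205, 147, 161, 138 and 136 CPM after LPS. LPS replicate 1 was the highest of the 10 values, 3 of the other 4 lay below every untreated one, and the log2 fold change of -0.09 (95% interval -0.32 to 0.13) did not pass the test. Ube2c was at 0.19 (-0.08 to 0.46). Without LPS replicate 1 the changes of Cdc20 and Ube2c were -0.21 and 0.06, and neither passed.

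Spindle kinases, motors and microtubule-associated proteins held 5 falls among 11 genes (45.5%, against 33.5% of all tested genes). They were Ckap2 (-0.80), Kif11 (-0.77), which pushes the spindle poles apart, Kif2c (-0.67), which takes down microtubule ends, Kif22 (-0.58) and Nusap1 (-0.46), the last of which missed the threshold in DESeq2 (-0.45, adjusted p = 0.053). The kinase Aurka (-0.03), its activator Tpx2 (-0.09), Tacc3 (-0.07) and Hmmr (-0.10) had changes between -0.10 and -0.03 on the log2 scale, none past the test. Without LPS replicate 1 these were -0.14, -0.19, -0.17 and -0.23, and Tacc3 then passed (adjusted p = 0.010 in edgeR). The chromokinesin Kif4 (-0.31, adjusted p = 0.053 in edgeR) passed without LPS replicate 1 (-0.50, adjusted p = 0.00040) and with the batch as a block (adjusted p = 0.027). Plk1, a kinase required from mitotic entry to exit, was at 184, 164, 199, 177 and 152 CPM untreated and at 195, 131, 157, 138 and 114 CPM after LPS. The groups overlapped through LPS replicates 1 and 3, and the change of -0.26 (95% interval -0.54 to 0.03) did not pass the test with all libraries and did without LPS replicate 1 (-0.38, adjusted p = 0.015 in edgeR). Of the 6 genes of the central spindle and cytokinesis, Kif20b (-0.76), Ect2 (-0.57) and Anln (-0.36) fell, 3 of 6 against the same 33.5%. Kif20a (-0.25) and Kif23 (-0.26) did not pass, but both did without LPS replicate 1 (-0.37 and -0.40, adjusted p = 0.0031 and 0.0049 in edgeR), and Kif20a also did with the batch as a block (adjusted p = 0.025), where 34.9% of all tested genes were lower, and in the fit of the young groups alone (0.041). Prc1, which bundles the microtubules of the central spindle, was at 0.27 (-0.05 to 0.58) with all libraries and at 0.09 without LPS replicate 1.

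Condensin and chromosome structure held the largest single fall. Ncapd2, a subunit of condensin I, which compacts mitotic chromosomes, stood at 227, 200.4, 211, 205 and 182 CPM untreated and at 110.3, 79.0, 79.1, 78.1 and 65.5 CPM after LPS. Every LPS value lay far below every untreated one, and the fall was 2.50-fold (log2 fold change -1.32 ± 0.11 SE, adjusted p = 4.1e-10 in edgeR's quasi-likelihood test). The other condensin genes fell by less, Ncaph with -0.73, Ncapg with -0.56, Smc4 with -0.29 and Smc2 with -0.28. Mki67, which coats mitotic chromosomes and keeps them apart, went from 644, 645, 718, 704 and 531 to 503, 371, 426, 401 and 284 CPM. The groups did not overlap, and the log2 fold change was -0.71 ± 0.14 (SE, adjusted p = 1.6e-04 in edgeR). Top2a, which untangles sister DNA, was at -0.20 (-0.47 to 0.06) and did not pass with all libraries. Its log2 difference was 0.34 in batch 1 and -0.52 to -0.28 in batches 2 to 5, and without LPS replicate 1 it was called lower (-0.35, adjusted p = 0.0081 in edgeR).

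Both transcription factors on the list fell by nearly equal amounts. Mybl2 went from 213, 241, 245, 277 and 274 CPM in untreated to 139.8, 117, 125, 142 and 131 CPM in LPS replicates of young cells. Foxm1 went from 95.2, 88.6, 95.3, 107 and 95.8 to 63.6, 44.9, 49.0, 56.6 and 47.0 CPM. Neither gene's groups overlapped, and the log2 fold changes were -0.93 ± 0.07 and -0.89 ± 0.09 (SE, adjusted p = 2.0e-10 and 1.3e-08 in edgeR's quasi-likelihood test). Mybl2 was among the few members for which LPS replicate 1 was not the highest of its group.

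**Figure D4:**
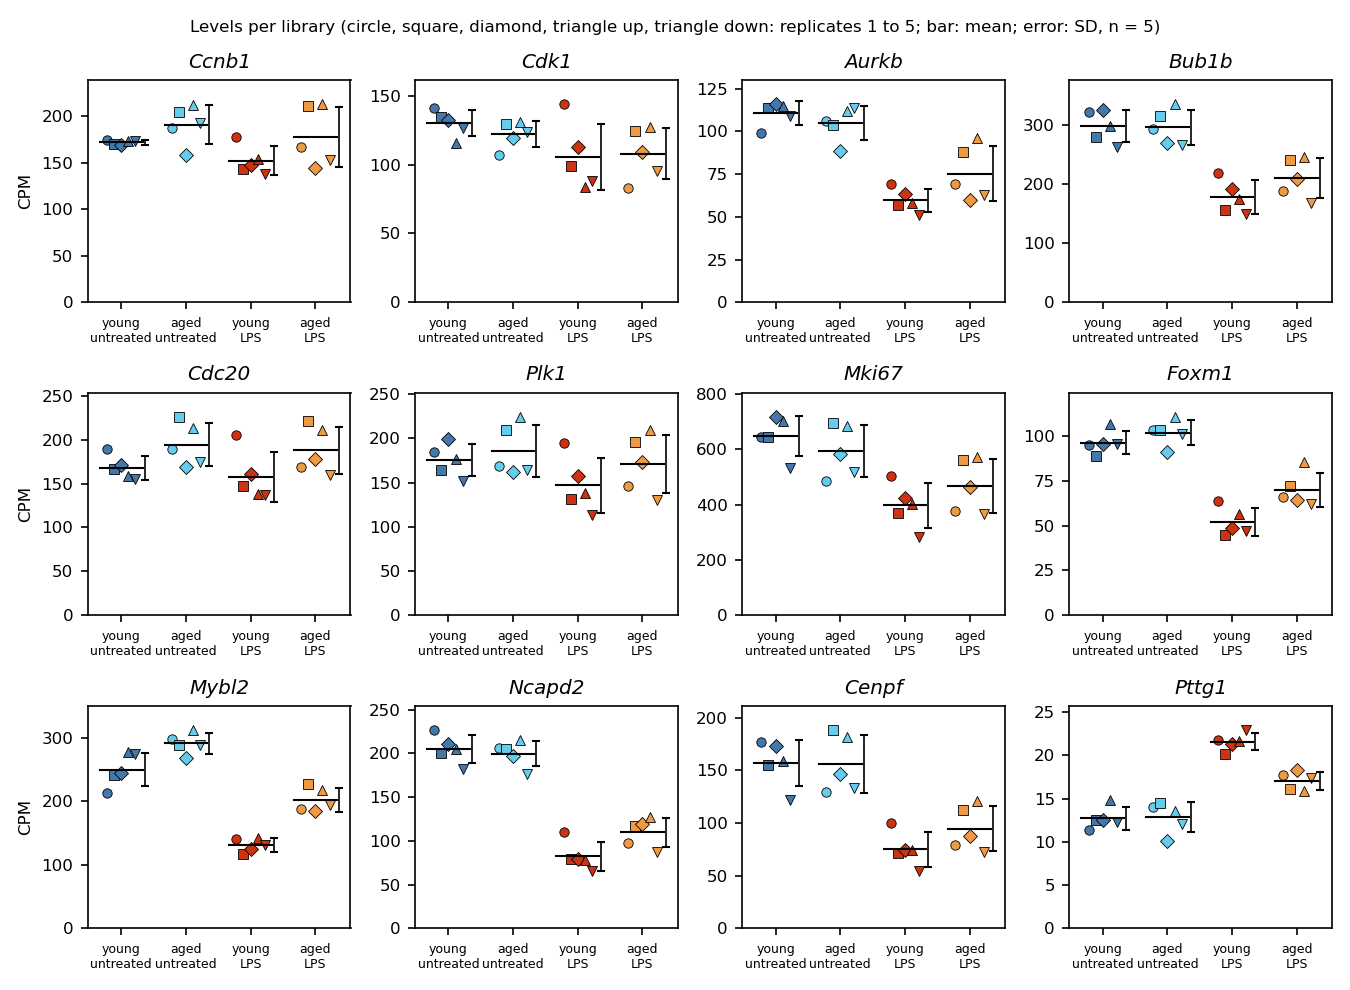
CPM (vertical axes, from 0) of 12 members in the 4 groups, with symbols for replicates 1 to 5, bars for the mean and error bars for the SD (n = 5). Ncapd2, Cenpf, Mybl2 and Foxm1 drop after LPS in both ages, Pttg1 rises in both, and Ccnb1, Cdc20 and Plk1 overlap between groups.

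In aged cells, LPS lowered many of the members too, and the test of the difference between the ages is given further on. At an adjusted p below 0.05 in edgeR, 26 of 54 members (48.1%) were lower and 1 was higher, where 26.9% of all tested genes were lower and 27.5% higher (54.4% in all), and log2 fold changes had a median of -0.26 in the members and 0.00051 in all tested genes. Within batches that median ran from -0.39 in batch 5 to -0.13 in batch 4. All 26 were also lower in young cells, and the 1 that rose was again Pttg1. The young and aged responses share no libraries.

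The largest falls were those of Ncapd2, Cenpf and Nuf2. Ncapd2 went from 206, 205, 197, 215 and 176 CPM in aged untreated replicates 1 to 5 to 97.7, 117, 119, 127 and 87.8 CPM after LPS (log2 fold change -0.87 ± 0.11 SE, adjusted p = 4.5e-07 in edgeR). Cenpf went from 129, 188, 146, 182 and 133 to 78.7, 112, 87.9, 121 and 72.0 CPM (-0.73 ± 0.15, adjusted p = 3.5e-04 in edgeR). For neither gene did the groups overlap, and aged replicates 2 and 4 were high for Cenpf with and without LPS. Nuf2, which carries the microtubule-binding end of the Ndc80 complex together with Ndc80, went from 54.6, 59.1, 61.8, 59.7 and 59.1 to 30.1, 42.6, 42.6, 39.8 and 29.1 CPM (-0.68 ± 0.13, adjusted p = 1.6e-04 in edgeR). In young cells the same gene had gone from 64.8, 64.7, 62.2, 51.2 and 55.6 to 47.0, 29.8, 30.2, 24.4 and 27.0 CPM, with LPS replicate 1 far above the other 4. Pttg1 rose 1.33-fold in aged cells, from 14.0, 14.5, 10.2, 13.6 and 12.1 to 17.8, 16.1, 18.3, 15.8 and 17.3 CPM (0.41 ± 0.09, adjusted p = 4.7e-04 in edgeR). All its LPS values lay above all untreated ones.

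By role, 4 of 8 entry, 2 of 4 passenger, 3 of 5 checkpoint and 5 of 7 kinetochore genes fell in aged cells. So did 4 of 11 spindle, 2 of 6 cytokinesis and 4 of 7 chromosome structure genes and 2 of 2 transcription factors. Of the anaphase-promoting complex partners, 0 of 4 fell and 1 rose. Among all tested genes 26.9% were lower and 27.5% higher. The shares of the spindle (36.4%) and cytokinesis genes (33.3%) lay near the 26.9%. The call of Ncapg was lost in a fit of the aged groups alone (-0.24, adjusted p = 0.067 in edgeR), where 27.2% of all tested genes were lower, and separase did not pass (-0.27, adjusted p = 0.058 in edgeR). With the batch as a block, where 28.8% of all tested genes were lower, Espl1 passed (adjusted p = 0.032 in edgeR), as did Incenp (0.039) and Nusap1 (0.044). Espl1 also passed in the fit of the aged groups alone (adjusted p = 0.046 in edgeR). Mybl2 went from 299, 288, 268, 312 and 288 to 188, 227, 184, 217 and 193 CPM (-0.53 ± 0.07) and Foxm1 from 103, 103, 90.9, 111 and 101 to 66.2, 72.0, 64.2, 85.3 and 62.3 CPM (-0.54 ± 0.09), each without overlap between the groups. Aurkb fell from 106, 104, 88.5, 112 and 114 to 69.3, 87.9, 59.7, 96.3 and 62.9 CPM (-0.48 ± 0.11), and here the LPS value of replicate 4 lay above the untreated value of replicate 3. Bub1b fell from 293, 316, 269.6, 336 and 266 to 188, 241, 209, 246 and 169 CPM (-0.49 ± 0.11), with every LPS value below every untreated one. Mki67 was at 486, 694, 584, 684 and 518 CPM untreated and at 377, 559.7, 463, 573 and 365 CPM after LPS, and the groups overlapped. Its fall was close to the threshold (-0.34 ± 0.14, adjusted p = 0.045 in edgeR) and missed it when any of replicates 2 to 5 was left out (adjusted p from 0.0513 to 0.0892).

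Cdk1 (log2 fold change -0.18, 95% interval -0.43 to 0.07), Ccnb1 (-0.11, -0.31 to 0.09), Plk1 (-0.12, -0.40 to 0.16) and Cdc20 (-0.05, -0.27 to 0.17) did not pass the test in aged cells. Cdk1 stood at 107, 129, 119, 131 and 123 CPM untreated and at 83.3, 124, 109, 127 and 95.4 CPM after LPS, lower in 5 of 5 batches but with overlapping groups. Ccnb1 stood at 188, 205, 158, 212 and 193 and 168, 211, 144, 214 and 153 CPM, and replicates 2 and 4 were the highest of both groups. Plk1, at 169, 209, 162, 224 and 164 and 146, 196, 173, 209 and 129.8 CPM, and Cdc20, at 189, 226, 168, 213 and 175 and 169, 221, 178, 210.5 and 159.7 CPM, had the same 2 replicates on top, and their groups overlapped. In all, 16 members were called in neither response, where 64.6% of all tested genes were called in young and 54.4% in aged cells. The share of all tested genes called in neither was not counted. The 16 included 4 of the 5 members with the highest level per length in young untreated cells, Cdc20, Plk1, Ube2c and Aurka. Whether level and call go together was not tested. Without young LPS replicate 1 only 9 members were called in neither response, and Plk1 was no longer among them. In that fit 63.7% of all tested genes were called in young and 55.0% in aged cells.

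**Figure D5:**
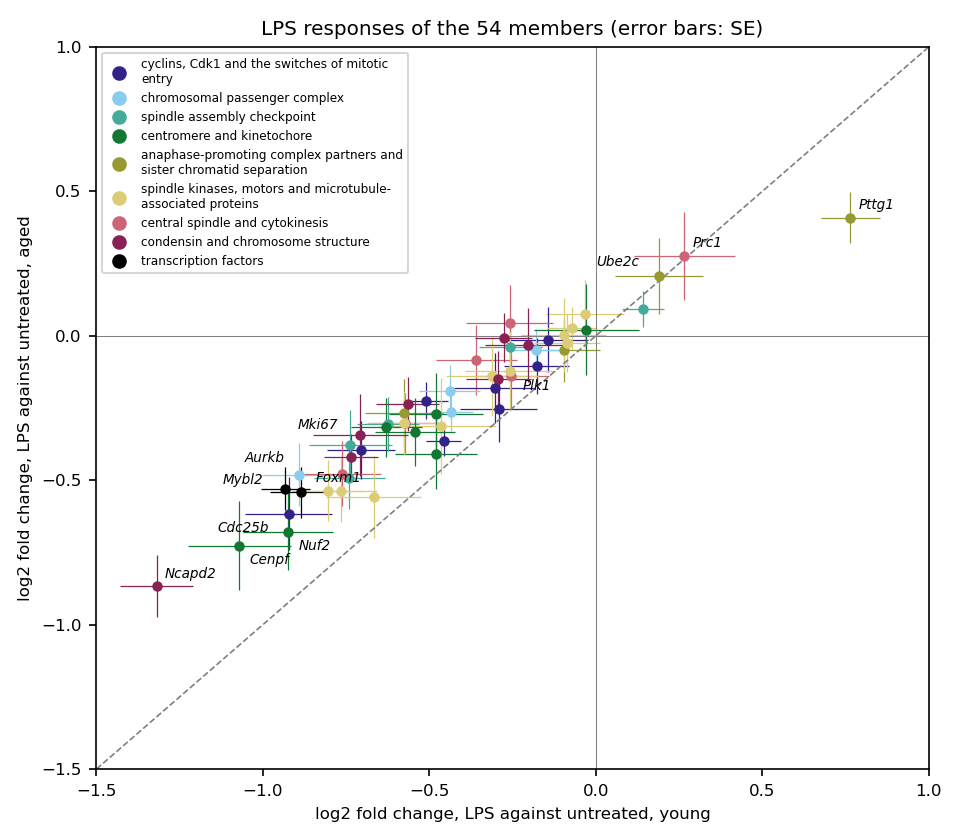
Log2 fold change after LPS in aged (vertical axis) against young (horizontal axis) cells for each of the 54 members, coloured by role, with error bars for the SE and a dashed line where both would be equal. All but Pttg1 and Bub3 lie above the line, Ncapd2 lies lowest in both, and Pttg1 lies alone at the right.

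Whether age alters the state reached under LPS was asked by comparing aged with young LPS cells. At an adjusted p below 0.05 in edgeR, 20 of 54 members (37.0%) were higher in aged LPS cells and 1 was lower, where 14.0% of all tested genes were higher and 15.0% lower (29.0% in all). Members had a median log2 fold change of 0.24, against 0.01 in all tested genes, and 19 of the 20 were among the members that had fallen in young cells, the exception being Cdc25c. This comparison and the LPS response of young cells share the young LPS libraries. Within batches the median was -0.30 in batch 1, 0.52 in batch 2, 0.21 in batch 3, 0.58 in batch 4 and 0.20 in batch 5. Without young LPS replicate 1, 41 members were higher and 1 lower, where 14.0% and 14.4% of all tested genes were, and the count of members called fell to 6 without replicate 2 of all groups and to 10 without replicate 4, where 16.8% and 24.7% of all tested genes were called.

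Mybl2 differed most, at 188, 227, 184, 217 and 193 CPM in aged and 139.8, 117, 125, 142 and 131 CPM in young LPS replicates 1 to 5. Every aged value lay above every young one, and the difference was 1.54-fold (log2 fold change 0.62 ± 0.07 SE, adjusted p = 2.3e-06 in edgeR, higher in 5 of 5 batches). Cdc25c followed with 16.1, 16.9, 17.2, 18.7 and 12.1 CPM in aged and 12.9, 10.0, 10.7, 14.5 and 10.4 CPM in young LPS replicates (0.47 ± 0.12, adjusted p = 0.0046 in edgeR, 5 of 5 batches). Only aged replicate 5 lay within the young range. Its change after LPS passed the test in neither age, and its aged values were high without LPS as well. The checkpoint kinase Ttk stood at 30.1, 45.9, 33.9, 45.7 and 29.6 CPM in aged and 35.8, 23.8, 27.2, 27.6 and 20.7 CPM in young LPS replicates (0.46 ± 0.13, adjusted p = 0.0094 in edgeR). Aged replicates 2 and 4 lay above all young ones and the others overlapped with young replicate 1, and the call was lost without replicate 2 (adjusted p = 0.127) or replicate 4 (0.066).

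The other members called higher in aged LPS cells were Ncapg (0.43), Foxm1 (0.42), Ncapd2 (0.41), Ccna2 (0.41), Spc24 (0.40), Ckap2 (0.38), Kif22 (0.36), Bub1 (0.36), Aurkb (0.33), Kif20b (0.32), Espl1 (0.32), Ect2 (0.30), Cdca3 (0.30), Birc5 (0.28), Ccnb2 (0.24), Smc2 (0.24) and Cdca8 (0.24). They came from each of the 9 roles. For Ncapd2 and Foxm1 the overlap between ages came from young LPS replicate 1 alone, since the other 4 young values of each gene lay below all 5 aged ones. The call of Aurkb was lost without replicate 2 (adjusted p = 0.201) or replicate 4 (0.183). With the batch as a block, where 16.3% of all tested genes were higher, Bub1b passed (adjusted p = 0.0466 in edgeR), as did Cdc25b (0.0174) and Cenpf (0.0466). In a fit of the young and aged LPS libraries alone, where 11.8% of all tested genes were higher, Aurkb, Cdca8, Ect2, Espl1, Kif20b, Kif22 and Smc2 missed the threshold (adjusted p from 0.0562 to 0.106 in edgeR). Cdk1 differed least among the entry genes, with 0.03 and a 95% interval of -0.22 to 0.29, and was at 0.17 (adjusted p = 0.25 in edgeR) without young LPS replicate 1. Pttg1 was the single member lower in aged LPS cells, at 17.8, 16.1, 18.3, 15.8 and 17.3 against 21.8, 20.2, 21.3, 21.7 and 23.0 CPM without overlap (-0.34 ± 0.09, adjusted p = 0.0052 in edgeR, lower in 5 of 5 batches).

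A gene that passes in one age and not in the other has not been shown to differ between them, so the difference of the LPS responses was tested directly. Only Mybl2 passed, with an aged response 0.40 ± 0.10 (SE) above the young one on the log2 scale (adjusted p = 0.021 in edgeR's quasi-likelihood test), where 6.39% of all tested genes passed, 4.12% with the aged change above the young one and 2.27% with it below. The aged change was above the young one in 52 of 54 members and in 53.9% of all tested genes. Members of a library moved together, so these are not independent signs, and in batch 1 the aged change was the lower one in 51 of 54. The exceptions to the 52 were Pttg1 (-0.36) and Bub3 (-0.05). In 26 of the 26 members called lower in both ages the fall was larger in young cells, and the same share over all tested genes was not counted. The median difference was 0.21 over the members and 0.02 over all tested genes, and 12 members had an unadjusted p below 0.05. The share of all tested genes with such a p was not counted in this fit. Without young LPS replicate 1 the members' median was 0.34 and the unadjusted p of 36 lay below 0.05. Over all tested genes the median was then 0.02, and 2571 of 12902 had an unadjusted p below 0.05. With the batch as a block, 4 members passed, Mybl2, Ncapd2 (0.46), Foxm1 (0.34) and Cdca3 (0.29), where 5.63% of all tested genes had the aged change higher. Within batches the median difference was -0.19 in batch 1 and between 0.10 and 0.39 in the other 4. Without young LPS replicate 1, 9 members passed, where 4.42% of all tested genes had the aged change higher. These were Ncapd2 (0.58), Mad2l1 (0.43), Mybl2 (0.43), Foxm1 (0.42), Ccna2 (0.42), Ncaph (0.39), Smc2 (0.38), Bub1 (0.35) and Cdca3 (0.33). Without replicate 2, 3, 4 or 5 of all groups the call of Mybl2 was lost (adjusted p from 0.0532 to 0.186).

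Other genes of the same stages, from a list of 69 that does not overlap the members, also mostly fell after LPS. This list too was chosen with earlier results of these data known and was measured in the same libraries. It is therefore not an independent check of the members. In young cells 57 of 69 were lower after LPS and 4 higher (median -0.55), against 33.5% lower and 31.2% higher among all tested genes. In aged cells 45 were lower and 4 higher (-0.32), against 26.9% and 27.5%, and 33 were higher and 1 lower in aged than in young LPS cells (0.31), against 14.0% and 15.0%. The largest falls in young cells were those of Psrc1 (-1.47), a microtubule-associated protein, Depdc1b (-1.44) and Aspm (-1.37), which acts at spindle poles. Their changes in aged cells were -1.24, -0.93 and -0.85. In the difference of the responses 9 of the 69 passed, all with the aged change above the young one (4.12% of all tested genes), and without young LPS replicate 1, 16 passed (4.42%) and 50 of the 69 were higher in aged LPS cells (14.0%). The largest differences with all libraries were those of Cenpo (0.63), Ncapg2 (0.57), a subunit of condensin II, and Fbxo5 (0.56), an inhibitor of the anaphase-promoting complex. Without LPS, Ube2s, which works with Ube2c, was the only one called (0.22, adjusted p = 0.028 in edgeR).

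The 15 subunits of the anaphase-promoting complex had 6 lower and 1 higher in young cells (against 33.5% and 31.2% of all tested genes), with a median of -0.08 and extremes of -0.29 and 0.15. In aged cells 2 were lower and 1 higher (against 26.9% and 27.5%). Of 12 genes of cohesin and its regulators, 8 fell in young cells (66.7%, against 33.5% of all tested genes) and 6 in aged cells (against 26.9%), led by Esco2, the acetyltransferase that locks cohesin during replication. Esco2 averaged 41.7 ± 4.11 CPM in young untreated and 13.6 ± 2.76 CPM in young LPS cells (SD, n = 5), against 42.5 ± 3.79 and 21.2 ± 1.22 CPM in aged cells, and its responses differed between ages by 0.62 on the log2 scale (adjusted p = 0.0085 in edgeR).

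Genes of DNA replication at the entry into S phase fell as well. Of 32, 31 fell in young cells (median -0.93, 96.9% against 33.5% of all tested genes) and 27 in aged cells (-0.44, 84.4% against 26.9%). In aged LPS cells 28 were higher than in young ones (0.47, 87.5% against 14.0%), and in 23 the responses themselves differed in edgeR, with the aged change above the young one (71.9% against 4.12%). Rrm2, a subunit of ribonucleotide reductase, averaged 151.6 ± 23.95 CPM in young untreated and 53.5 ± 6.43 CPM in young LPS cells, and 165.1 ± 18.0 and 108.1 ± 13.3 CPM in aged cells (SD, n = 5). Its change was -1.501 in young cells and 0.89 less negative in aged cells (adjusted p = 0.00089 for the difference in edgeR). Uhrf1, a DNA methylation maintenance factor, fell by 1.68 on the log2 scale in young cells, with an aged response 1.02 higher, and Tk1, thymidine kinase, had the largest falls of the list in both ages (-1.89 and -1.39). Whether the replication genes and the members differ in their responses was not tested.

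Some members share exonic bases with neighbouring genes in the annotation, and the strand setting of the counting is not given in the sources used here, so their counts are less certain. The largest overlaps are those of Kif20a with Cdc23 (29.3% of its exonic bases), Ube2c with Tnnc2 (22.8%), Kif4 with Pdzd11 (15.1%), Ncapg with Lcorl (13.4%), Cdc25c with Gm3550 (12.7%), Ccna2 with Exosc9 (12.5%) and Prc1 with Rccd1 (11.1%). All of these neighbours lie on the opposite strand, and per the study's methods the library preparation was stranded. Smaller overlaps on the same strand are those of Ncapd2 with Scarna10 (3.78%) and Gm28967 (3.75%) and of Top2a with Gm23451 (1.35%). Foxm1 shares bases on the same strand with Tex52 (2.50%) and Gm44596 (1.69%).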

How the data were processed

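Messenger RNA of 20 libraries, 4 groups of 5, was sequenced by the authors. Per the labels and the study's methods, reads were checked with FastQC 0.11.8, aligned with STAR 2.6.1d and counted per gene with featureCounts 1.5.1, and the values deposited are raw counts for 55487 Ensembl gene identifiers. All 20 columns were used, and no column belonged to other samples. The count settings for strand and shared reads are not given in the sources used here. The 54 members and the other gene lists were chosen with earlier results of these data known.

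Counts were filtered with filterByExpr, scaled by TMM and fitted for all 12799 remaining genes in 1 model over the 4 groups with edgeR 4.0.16 (quasi-likelihood F-test, Benjamini-Hochberg adjustment over all tested genes, threshold 0.05) in R 4.3.3. CPM values are TMM-scaled, and log2 CPM values used a prior count of 2. Intervals of 95% come from the standard error of the fit. Gene positions and exon lengths came from GENCODE M21 (GRCm38), which held 55227 of the identifiers, and promoters from RefSeq. The fit was tested on simulated data first.

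Values in every library are given for 8 fixed members (Ccnb1, Cdk1, Aurkb, Bub1b, Cdc20, Plk1, Mki67 and Foxm1) and for the 3 members with the largest change in each direction among those called in a comparison. Cdc25c and Ccnb2 without LPS were added after their values were seen. Of the other lists, up to 3 called genes with the largest change were named. The replicate number is a batch in the labels, so it pairs the libraries. Deviations from the group means of same-numbered libraries had a mean correlation of 0.276 between young untreated and young LPS, 0.260 between aged untreated and aged LPS, 0.111 between young and aged untreated and 0.0425 between young and aged LPS. No 2 libraries of a group agreed within sampling noise (chi-square per degree of freedom from 2.43 to 27.0 over 40 pairs). Alternatives were the batch as a block, DESeq2 1.42.0, other scalings, other filters, a threshold of 0.01, a fit of the compared groups alone and leaving out each replicate number. Leaving out each of the 20 single libraries was added after the data were seen.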

Additional observations from a re-analysis of the deposited data

Results flagged for a closer look

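Nuf2, the kinetochore subunit, was at 47.0 CPM in young LPS replicate 1 while the other 4 libraries of that group lay between 24.4 and 30.2 CPM, a gap larger than Dixon's 95% critical value of 0.71 of the range allows for 5 samples. It was the single such case among 64 groups of values checked, a rate below the 1 in 20 or so that chance alone gives. The check covered only part of the 54 members, and the case is not an isolated one. Outside the check, several other members stood apart in the same library. Among them, Ccna2 was at 246.1 CPM in young LPS replicate 1 against 170.7 to 180.8 CPM in the other 4. Tacc3 was at 162.3 against 117.4 to 124.4 CPM. Bub1 was at 195.9 against 124.5 to 138.4 CPM. This library was the highest of its group for 50 members.

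The LPS response of Mybl2 differed between aged and young cells by 0.403 on the log2 scale in the test of the difference itself.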

How the results depend on the processing

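In untreated cells, where 4.46% of all tested genes (without a filter) to 17.5% (DESeq2 with the block) were called in these fits, the count of members called, 0 at first, was 3 with the batch as a replicate block, in edgeR and in DESeq2, 3 with DESeq2 without the block, with library sizes alone and with a fit of the compared groups, 2 with DESeq2 size factors or at least 10 counts in every sample, and 1 without a filter. It stayed at 0 without each replicate number (4.27% to 9.3% of all tested genes called). Without single libraries it ran from 0 to 3 (7.4% to 12.8%), with 3 without aged untreated replicate 3 (12.2%). The 20 members higher and 1 lower in aged than in young LPS cells became 13 at a threshold of 0.01 (18.2% of all tested genes called) and 35 with library sizes alone (35.3%, where the median of all genes moved from 0.0085 to 0.088), against 29.0% in the reported fit. Without a replicate number they ran from 6 (16.8%, without replicate 2) to 47 (27.8%, without replicate 1), and without a single library from 14 (27.5%, without young LPS replicate 5) to 42 (28.4%, without young LPS replicate 1). For the difference of the responses, 1 (6.39% of all tested genes) became 0 at a threshold of 0.01 (2.56%) and 2 without a filter (2.55%). It became 4 with library sizes alone (8.47%) or the replicate block (9.03% in edgeR, 12.0% in DESeq2). Without a replicate number it ran from 0 (1.47%, without replicate 2) to 8 (5.43%, without replicate 1). Without a single library it ran from 1 (6.0%, without young untreated replicate 1) to 9 (6.46%, without young LPS replicate 1). With a replicate number or library left out, the counts for LPS in young cells ran from 32 (58.5%, without replicate 2) to 45 (63.7%, without young LPS replicate 1). In aged cells they ran from 21 (48.5%, without replicate 5) to 30 (52.7%, without aged LPS replicate 4). The counts for LPS stayed within 1.5 times the reported ones under every alternative run. Beyond the counts given here and the calls named in the report, the block moved no count by more than that. The cause of these changes was not tested.

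Values near 0 that were not called changed sign. Bub1b between untreated ages was 0.013 with library sizes alone and 0.00495 with the compared groups alone. With a replicate or library left out, it ran from -0.0577 to 0.0595, Cdk1 between ages under LPS from -0.104 to 0.253, Cdc20 after LPS in aged cells from -0.116 to 0.00931, and the difference of the responses from -0.0204 to 0.157 for Cdc20 and from -0.00185 to 0.146 for Ccnb1. Depth, at least 11371508 counts a library, left every member far above the floor of 3 counts. Each group had 5 replicates, and which limit of the data weighs most was not tested.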

Other observations

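Of 18 tested genes that restrain the cycle, 8 were higher and 8 lower after LPS in young cells (44.4% each way, against 31.2% higher and 33.5% lower among all tested genes). In aged cells 9 were higher and 7 lower (against 27.5% and 26.9%). Cdkn1a, the p21 inhibitor of cyclin-dependent kinases, averaged 26.2 ± 1.92 CPM in young untreated and 166 ± 45.5 CPM in young LPS cells, and 19.6 ± 1.04 and 69.7 ± 12.2 CPM in aged cells (SD, n = 5). It rose in both ages (log2 fold change 2.66 and 1.83), and its response was 0.83 smaller in aged cells (-0.83, adjusted p = 0.016 in edgeR). Cdkn2b, the p15 inhibitor, rose by 3.19 in young and 1.90 in aged cells, from means below 1 CPM. Wee1, the kinase that holds Cdk1 inactive, averaged 45.9 ± 1.53 CPM in young untreated and 27.0 ± 3.41 CPM in young LPS cells, against 45.8 ± 2.09 and 39.4 ± 1.74 CPM in aged cells, a difference of the responses of 0.55 (adjusted p = 0.00093 in edgeR).

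Of 16 tested genes of the MuvB core, E2F repressors and pocket proteins, 9 fell in young cells (56.2%, against 33.5% of all tested genes) and 7 in aged cells (43.8%, against 26.9%), and none was called higher. The largest falls in young cells were those of Tfdp2 (-2.73), a partner of E2F factors, and of the pocket proteins Rbl2 (-2.45) and Rb1 (-1.61), with -1.88, -1.49 and -1.19 in aged cells. Rbl2 averaged 41.5 ± 4.57 CPM in young untreated and 7.62 ± 1.22 CPM in young LPS cells, and 34.3 ± 1.24 and 12.2 ± 1.04 CPM in aged cells (SD, n = 5). Its responses differed between ages by 0.96 (adjusted p = 0.00014 in edgeR). Without LPS the same 3 genes were lower in aged cells (-0.37, -0.27 and -0.30), where 7.81% of all tested genes were lower.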
